A study of Mus musculus with 8 samples.

Results

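The 9 genes described here, Afp, Gpc3, H19, Igf2, Prom1, Golm1, Cd24a, Igf2bp3 and Lin28b, are used as markers of the fetal liver, of liver progenitors or of hepatocellular carcinoma. They were taken by symbol from a given list, and all 9 were found among the 32285 genes of the count tables. Each was measured as unique molecular identifiers (UMIs, 1 per captured RNA molecule) in nuclei of 8 male DIAMOND mice, a line the labels give as a 129A1/SvIm and C57BL/6J cross that develops fatty liver disease and liver tumours on a Western diet. Frozen liver was used for 10x Chromium 3′ v3.1 libraries of nuclear RNA, 1 per mouse. The WD tumour group (n = 3) was fed the high-fat diet with sugar water for 48 weeks and had hepatocellular carcinoma. The RD tumour (n = 2) and RD no tumour (n = 3) groups were both returned to chow after 36 weeks of that diet, and differed in whether hepatocellular carcinoma was found at the end. No mouse was kept on chow throughout, and the labels do not say whether the frozen piece held tumour tissue. The labels give 48 weeks as the age at which livers were taken, yet by the series text the WD mice were 2 months old when a diet of 48 weeks began, so their age is not settled. All 11 hepatocyte markers were detected in every library.

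Nuclei with at least 300 detected genes numbered 6048 to 10376 in 7 libraries, with 17948627 to 32208799 UMIs each and a median of 1120 to 2656 UMIs per nucleus. The library RD tumour 1 had exactly 20000 barcodes, and its cell classes were weakly separated: 57.6% of its endothelial-gated and 69.3% of its macrophage-gated nuclei lay close to the class threshold. It is given apart and enters no main test, so RD tumour is 1 mouse there, RD tumour 2, assumed to vary like the other groups. RD tumour 2 carried pancreatic acinar RNA, with acinar markers summing to 300.9 CPM (UMIs in counts-per-million units) and to 3.4 to 9.4 in the other 7 libraries. The median share of mitochondrial UMIs per nucleus was high for WD tumour 1 (7.91%) and WD tumour 3 (7.51%) and ran from 1.30% to 3.28% elsewhere. Barcodes shared between 2 libraries numbered 8 to 62.

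Several of these genes are tied together in liver development. Afp encodes alpha-fetoprotein, the main serum protein of the fetus, and is silenced in hepatocytes after birth. H19, an imprinted long noncoding RNA, and Igf2, a fetal growth factor, lie side by side and share enhancers, with H19 read from the maternal and Igf2 from the paternal copy. In the adult liver the transcription factor Zhx2 is known to hold down Afp, H19 and Gpc3, and Zbtb20 to hold down Afp. Lin28b blocks maturation of let-7 miRNAs, and Igf2bp3 binds mRNAs, Igf2 among them; both are fetal proteins that return in some tumours.

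The Afp promoter is shown because liver factors act on it close to the start of transcription, and miR-675 because H19 RNA is its precursor. The sequences are from RefSeq (GRCm38.p6, the mm10 assembly), 5′ to 3′. Of the 9 genes, 7 had a promoter entry. In the 250 bases before the RefSeq start of Afp, at chr5:90490464-90490713 on the plus strand, capitals mark a match to the HNF1 motif, beginning at position -39, and the TATA box TATAAA, beginning at position -7. These positions count from the RefSeq start. The GENCODE start of Afp, given further below, is chr5:90490737, which lies downstream of it. Both motifs are therefore further from the GENCODE start than these positions give. Both motifs were searched on both strands and do not overlap. These letters of the HNF1 motif were set after the sequence was seen, and match 0.0822% of the 32851 promoters of that table; TATAAA matches 12.4%. In the mature miRNAs, capitals mark the seed, bases 2 to 8; the arms have different seeds.
Afp promoter: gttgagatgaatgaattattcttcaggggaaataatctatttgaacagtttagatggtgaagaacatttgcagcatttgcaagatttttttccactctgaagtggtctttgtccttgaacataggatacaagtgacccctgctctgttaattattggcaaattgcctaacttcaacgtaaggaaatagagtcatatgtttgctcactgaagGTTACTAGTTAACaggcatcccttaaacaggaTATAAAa
mmu-miR-675-5p: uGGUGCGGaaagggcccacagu
mmu-miR-675-3p: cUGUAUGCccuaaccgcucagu
The miR-675 arms lie at chr7:142577112-142577133 and chr7:142577078-142577099 on the minus strand, within H19. The counts measure H19 RNA and not the miRNA, which these libraries do not capture.

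Levels below are in the same unit, CPM, the UMIs of a gene scaled to the UMIs of all nuclei of a library or class. They serve to compare samples for 1 gene, and are not a comparison between genes of different length. In a sum over a library, fewer cells of a type and less RNA per cell cannot be told apart. Nuclei were also sorted into classes by marker genes; hepatocyte-gated nuclei are those with at least 4 hepatocyte markers and no excess of another class, and so form a remainder class of 37870 of the nuclei in 7 libraries (63.7%). Differences were tested on summed counts with edgeR's quasi-likelihood test over all genes, and p-values were adjusted by Benjamini and Hochberg over the 19630 genes tested. None of the 9 genes passed an adjusted p of 0.05 in any of the 3 comparisons between groups. The background was as low: 0% of the genes tested were called between WD tumour and RD no tumour (1055 at an unadjusted p under 0.05, and 132 called by DESeq2), 0.0560% for RD tumour against RD no tumour, and 0% for WD tumour against RD tumour (859 unadjusted, 105 by DESeq2).

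**Figure D1:**
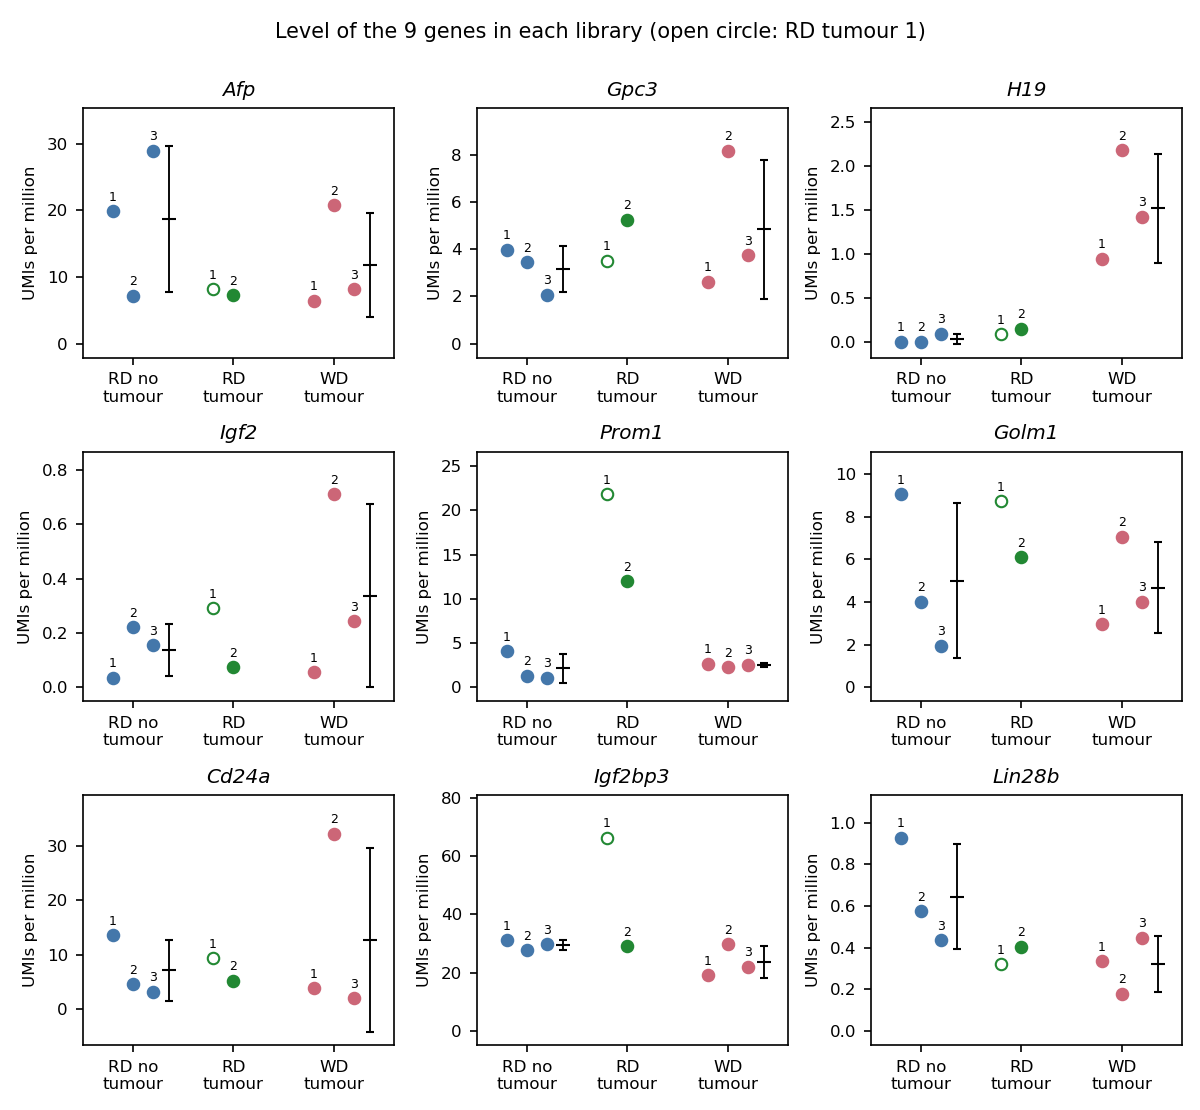
Level of each gene (CPM, vertical axis) in the 8 libraries by group. Numbers are the replicates, the open circle is RD tumour 1, and bars give the mean ± SD of groups with 3 mice. H19 is the gene for which all 3 WD tumour libraries (0.947 to 2.18) lie above all RD no tumour libraries (0 to 0.0931).

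H19 (ENSMUSG00000000031, chr7:142575529-142578143, minus strand) was the 1 member whose levels separated the WD tumour from the RD no tumour livers, although it did not pass the main test. Its UMIs numbered 17, 49 and 35 in WD tumour 1, 2 and 3. RD no tumour 1, 2 and 3 held 0, 0 and 3. RD tumour 2 held 4, and RD tumour 1 held 3. The mean level was 1.52 ± 0.620 CPM for WD tumour (SD, n = 3) and 0.0310 ± 0.0538 for RD no tumour (SD, n = 3), so the groups did not overlap. Of all genes tested, 6.92% likewise had every WD tumour library above every RD no tumour library. The RD tumour libraries, at 0.147 and 0.0873, were near the level that 3 UMIs give in each, and below all 3 WD tumour livers. H19 was the 1 member of 9 for which every WD tumour library was above RD tumour 2, where 19.9% of genes tested had that order.

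The pooled ratio of H19 between WD tumour and RD no tumour was 43.5, with a 95% counting interval of 14.5 to 214 that rests on 3 UMIs in the lower group and covers counting error only. Leaving out 1 mouse of either group, other than RD no tumour 3, moved it between 28.4 (without RD no tumour 1) and 49.9 (without WD tumour 1). Without RD no tumour 3 the lower group was at 0. The lower 95% counting limit of the ratio was then 21.4, and H19 was 26.8 times a floor of 3 UMIs over that group. Its edgeR log2 fold change was 5.20 (SE 0.98, unadjusted p = 0.00141), with an adjusted p of 0.711 over all genes. DESeq2, run as an alternative, gave 5.37 with an adjusted p of 0.000638, in a test that called 0.453% of genes higher and 0.219% lower in that group. Among the edgeR alternatives run, no adjusted p for this gene passed the threshold, and the log2 fold change ranged from 4.62 to 8.2 (the latter without RD no tumour 3). H19 had passed the low-count filter only through the group in which it is high. Against RD tumour 2 alone, the pooled ratio was 10.6 (4.0 to 39.5) and the edgeR log2 fold change 3.39, with an adjusted p that missed the threshold.

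Within the WD tumour livers, H19 came from few nuclei. WD tumour 2 had 24 nuclei with an H19 UMI, and 3 of them held 24 of its 49 UMIs. The strongest nucleus in any library, in WD tumour 2, held 14 H19 UMIs among 13421. The next ones held 7 in WD tumour 2 and 7 in WD tumour 3. One nucleus of RD tumour 2 held 3, while no nucleus of the RD no tumour livers held more than 1. All 5 nuclei with 3 or more H19 UMIs were hepatocyte-gated, carried 5 to 10 different hepatocyte markers, and were not called doublets. Outside WD tumour 2 the UMIs lay mostly 1 to a nucleus. In WD tumour 1 the 17 UMIs lay in 17 nuclei, 1 each. In WD tumour 3, 28 of the 29 nuclei with an H19 UMI held 1 each.

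H19 was not restricted to hepatocyte-gated nuclei. In WD tumour 2 its level was 2.72 CPM in hepatocyte-gated nuclei (95% counting interval 1.98 to 3.65) and 0.790 (0.256 to 1.84) in all others. In WD tumour 1 the values were 0.673 (0.308 to 1.28) and 1.75 (0.756 to 3.45). In WD tumour 3 they were 1.47 (0.971 to 2.14) and 1.28 (0.551 to 2.52). The intervals were apart in WD tumour 2 alone, where 3 nuclei held 24 of the 44 hepatocyte-gated UMIs, so that UMIs of 1 nucleus are not independent. The share of nuclei with an H19 UMI overlapped there too, at 0.426% (0.261% to 0.658%) of hepatocyte-gated and 0.168% (0.0459% to 0.430%) of other nuclei. Restricted to hepatocyte-gated nuclei, the comparison of WD tumour with RD no tumour gave 6.13 on the log2 scale (SE 1.01, adjusted p = 0.816, edgeR). That value rests on 0, 0 and 1 UMI in the RD no tumour livers, and ranged from 5.61 (without WD tumour 2) to 7.82 (without RD no tumour 3) when 1 mouse was left out. Free RNA in the suspension can place UMIs in any droplet, and its part was not tested. In WD tumour 1, 3 of 146 T and NK nuclei (2.05%, 95% interval 0.426% to 5.89%) had an H19 UMI. The share was 0.206% of hepatocyte-gated nuclei, and the medians were 1523 and 1177 UMIs. In that library H19 was found in 2 of 514 endothelial-gated, 1 of 464 macrophage-gated, 0 of 437 stellate-gated and 0 of 212 cholangiocyte-gated nuclei. In WD tumour 2 and 3, 0 of 170 and 0 of 188 T and NK nuclei had it. The median mitochondrial share was 7.91%, 2.77% and 7.51% in WD tumour 1, 2 and 3, so the library with the most H19 had the lowest of them. Over nuclei with at most 5% mitochondrial UMIs the whole-library log2 fold change was 4.72, and the part of RNA quality was not tested.

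The H19-positive nuclei of WD tumour 1, 2 and 3 (17, 24 and 29) were compared with the rest for the other members. None had an Afp, Prom1, Golm1 or Lin28b UMI, and those of WD tumour 1 had no other member at all. In WD tumour 2, 1 had Gpc3, 1 Igf2, 2 Cd24a and 5 Igf2bp3, and in WD tumour 3, 1 had Gpc3, 1 Cd24a and 5 Igf2bp3. Over the hepatocyte-gated nuclei of the 3 livers, Igf2bp3 was found in 10 of 50 H19-positive and 831 of 14736 H19-negative nuclei (50.2 and 21.6 CPM), and Gpc3 in 2 of 50 and 109 of 14736 (59.3 and 4.51 CPM). Afp was found in 0 of 50 and 556 of 14736. These are descriptions of few nuclei, with no test, and the nuclei were not thinned to 1 depth. All H19-positive nuclei of WD tumour 1, 2 and 3 had medians of 1940, 3851.5 and 1512 UMIs. The medians over all nuclei of these libraries were 1421, 1823.5 and 1527. The WD tumour 3 nucleus with 7 H19 UMIs also held 10 Gpc3 UMIs. The WD tumour 2 nuclei with 14 and 7 H19 UMIs also held 38 and 13 UMIs of Meg3, another imprinted long noncoding RNA expressed in the fetus. Those 51 Meg3 UMIs were all that the 20 H19-positive hepatocyte-gated nuclei of WD tumour 2 held; the other 4670 hepatocyte-gated nuclei of that library held 196, in 39 nuclei. Meg3 was at 0 in the H19-positive hepatocyte-gated nuclei of WD tumour 1 and 3, of which there were 9 and 21.

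Igf2 (ENSMUSG00000048583, chr7:142650766-142666816, minus strand), the paternally expressed neighbour of H19 at a distance of 72.6 kb, was close to the detection limit. Its UMIs numbered 1, 16 and 6 in WD tumour 1, 2 and 3. The RD no tumour livers had 1, 5 and 5, RD tumour 2 had 2 and RD tumour 1 had 10. Only WD tumour 2, at 0.711 CPM, stood above the others, which spanned 0.0343 to 0.291, and the WD tumour and RD no tumour groups overlapped. The log2 fold change of 1.23 (SE 0.97) between them did not pass the test. No nucleus held more than 2 Igf2 UMIs. Igf2 overlaps the antisense gene Igf2os, and the use of strand in counting is not given in the sources used here.

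Afp (ENSMUSG00000054932, chr5:90490737-90508907, plus strand) did not pass the test in any comparison, and its highest library was a liver without tumour. The RD no tumour livers had 19.9, 7.19 and 28.9 CPM. WD tumour 1, 2 and 3 had 6.46, 20.8 and 8.13. RD tumour 2 had 7.27, and RD tumour 1 had 8.15. High livers (RD no tumour 1 and 3, WD tumour 2) and low livers were thus present in both groups of 3, and the log2 fold change of -0.75 (SE 0.62) for WD tumour against RD no tumour did not pass the test. It was -1.39 without WD tumour 2 and -0.20 when RD no tumour 3 was left out. The RD tumour value against the same controls was -1.50 (SE 0.95), and -0.95 with that control left out, which also missed the threshold.

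Most Afp RNA was in hepatocyte-gated nuclei, which held 91.2% of the Afp UMIs in 7 libraries while making up 63.7% of nuclei. An Afp UMI was found in 5.18% of hepatocyte-gated nuclei, against 0.556% of endothelial-gated nuclei, whose median depths were 1177 to 4439 and 1021 to 2251 UMIs. Hepatocyte-gated nuclei were deeper in the RD no tumour livers than in the WD tumour livers, so their shares with an Afp UMI were compared at 500 UMIs. After thinning to that depth the shares were 1.01%, 0.447% and 1.23% in RD no tumour 1, 2 and 3, against 7.76%, 3.52% and 9.29% before. In WD tumour 1, 2 and 3 they were 0.206%, 1.00% and 0.210%, against 2.11%, 6.67% and 2.64% before. The same 3 livers were the highest on either scale.

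Single nuclei with much Afp were seen in the WD tumour livers. WD tumour 2 held nuclei with 16 and 10 Afp UMIs, WD tumour 3 held one with 9, and in the RD no tumour and RD tumour livers no nucleus held more than 4. Nuclei with at least 5 Afp UMIs numbered 4 in WD tumour 2 and 1 in WD tumour 3, and 0 in each of the other 6 libraries. Of nuclei with at least 3, RD no tumour 1, 2 and 3 held 12, 6 and 22, and WD tumour 1, 2 and 3 held 1, 26 and 9. These counts were not thinned. The hepatocyte-gated medians were 2763, 4439 and 2876.5 UMIs in the former and 1177, 1393 and 1427 in the latter, so the groups cannot be compared by them. In cholangiocyte-gated nuclei the Afp log2 fold change for WD tumour against RD no tumour was -2.59 (SE 0.91), with an adjusted p of 0.335.

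**Figure D2:**
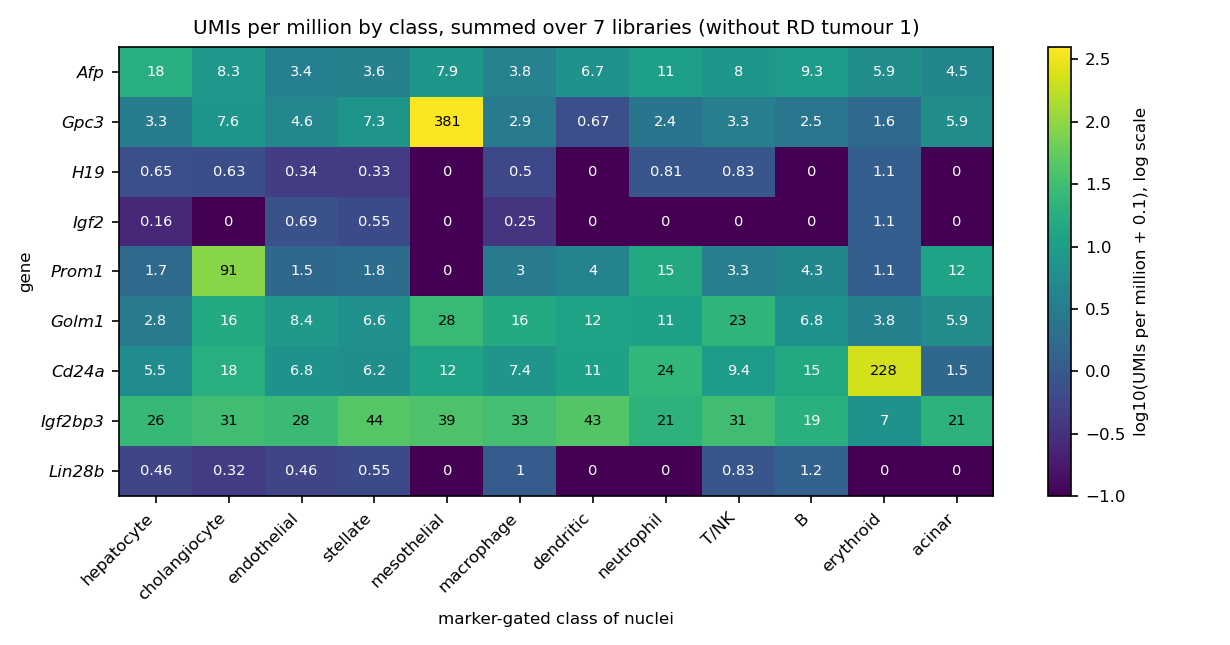
CPM of each gene (rows) in 12 marker-gated classes of nuclei (columns), summed over 7 libraries without RD tumour 1; colour is on a log scale. Gpc3 peaks in mesothelial-gated nuclei (381), Prom1 in cholangiocyte-gated (91.1) and Cd24a in erythroid-gated nuclei (228), while Igf2bp3 lies between 7.01 and 44.0 in all of them.

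Gpc3 (ENSMUSG00000055653, chrX:52272426-52613950, minus strand) encodes glypican-3, a heparan sulfate proteoglycan of the cell surface that is a serum and tissue marker of hepatocellular carcinoma. It had 2.62, 8.18 and 3.74 CPM in WD tumour 1, 2 and 3. The RD no tumour livers had 3.98, 3.44 and 2.08, RD tumour 2 had 5.25, and RD tumour 1 had 3.52. WD tumour 2 was the highest library, while WD tumour 1 lay within the RD no tumour range, and the log2 fold change between the groups was 0.56 (SE 0.46), short of the threshold. Without WD tumour 2 it was 0.01.

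By class, the highest Gpc3 level was in mesothelial-gated nuclei, the lining of the liver surface. These were 83 nuclei (0.140%) in 7 libraries and held 13.3% of the Gpc3 UMIs, at 381 CPM, against 3.3 in hepatocyte-gated and 7.25 in stellate-gated nuclei. A Gpc3 UMI was found in 53.0% of mesothelial-gated nuclei, 0.721% of hepatocyte-gated and 0.299% of erythroid-gated nuclei. Only RD tumour 2 and RD no tumour 1 had at least 20 mesothelial-gated nuclei, with 386 and 348 CPM, so the groups were not compared within that class.

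Nuclei with 3 or more Gpc3 UMIs fell into different classes in different livers. Of hepatocyte-gated nuclei, 1 had this many in each RD no tumour liver, 3 of 16707 in all. WD tumour 1, 2 and 3 had 0, 14 and 9, RD tumour 2 had 6, and RD tumour 1 had 0 of 15538. These counts were not thinned to 1 depth, so the groups cannot be compared by them. For Igf2bp3, hepatocyte-gated nuclei with 3 or more UMIs numbered 36 of 6377 in RD tumour 2 and 21 of 16707 in RD no tumour. Its whole-library levels there were nearly equal, at 29.1 and a mean of 29.5 CPM. In WD tumour they numbered 32 of 14786, at a mean of 23.7 CPM. The strongest, with 15, 13 and 10 Gpc3 UMIs, were hepatocyte-gated nuclei of WD tumour 2, and WD tumour 3 held others with 10 and 8. RD tumour 2 had a hepatocyte-gated nucleus with 7 and RD no tumour 2 one with 6. The hepatocyte-gated log2 fold change for WD tumour against RD no tumour was 1.10 (SE 0.60), with an edgeR adjusted p of 1.00, and 0.36 without WD tumour 2. WD tumour 1, labelled as tumour-bearing, held none of these hepatocyte-gated nuclei, and its 2 nuclei with 3 or more Gpc3 UMIs were cholangiocyte-gated.

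**Figure D3:**
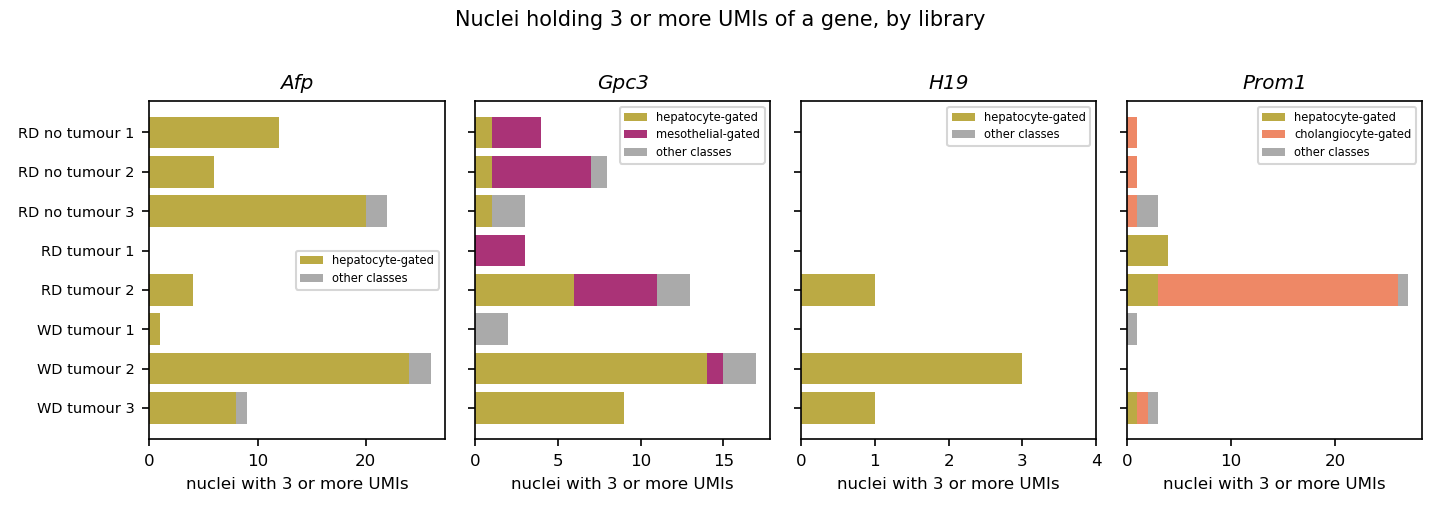
Number of nuclei with 3 or more UMIs (horizontal axis) of Afp, Gpc3, H19 and Prom1 in each of 8 libraries, coloured by marker-gated class. The nuclei were not thinned to 1 depth, so the groups cannot be compared by these counts. Hepatocyte-gated nuclei rich in Gpc3 number 0, 14 and 9 in WD tumour 1, 2 and 3, 0 and 6 in RD tumour 1 and 2, and 1 in each RD no tumour library; those rich in Prom1 are mostly cholangiocyte-gated nuclei of RD tumour 2.

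Prom1 (ENSMUSG00000029086, chr5:43993620-44102032, minus strand) encodes prominin-1 (CD133), a membrane protein of bile duct epithelium and of hepatic progenitors. It was highest in the RD tumour livers, at 21.8 CPM in RD tumour 1 and 12.0 in RD tumour 2. The RD no tumour livers had 4.05, 1.32 and 1.09, and the WD tumour livers 2.67, 2.27 and 2.56. The 2 RD tumour libraries were above all 6 others, an order whose share among all genes was not counted. RD tumour 2 exceeded every RD no tumour library for 3 of the 9 genes (Gpc3, H19 and Prom1), where 29.2% of all genes tested did so, and was below all of them for Lin28b, as for 12.4% of genes. RD tumour 1 exceeded them for Igf2, Prom1 and Igf2bp3 (36.6% of genes) and was below them for Lin28b (40.1%). Prom1 was the member for which every WD tumour library was below RD tumour 2, an order seen for 30.3% of genes. For Prom1, WD tumour (2.50 ± 0.211, SD, n = 3) and RD no tumour (2.15 ± 1.65, SD, n = 3) differed by less than the spread between mice, with a log2 fold change of 0.21 (SE 0.50) that was 0.96 without RD no tumour 1.

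The edgeR log2 fold change of Prom1 for RD tumour 2 against RD no tumour was 2.39, with an adjusted p of 0.824. With both RD tumour libraries it was 2.96 (adjusted p = 0.612). With RD tumour 1 in place of RD tumour 2 it was 3.35 (adjusted p = 0.0177), in a fit in which 10.7% of all genes were called higher. The 2 libraries held their Prom1 in different nuclei. In RD tumour 2, 148 of 327 UMIs were in 223 cholangiocyte-gated nuclei, of which 32.3% had a UMI, and the level there was 303 CPM. In the 6 libraries of the other groups the cholangiocyte-gated level was 40.1 to 60.7, and 10.3% to 15.0% of these nuclei had a UMI. As a background, 0.226% of endothelial-gated nuclei in 7 libraries had one, at medians of 1021 to 2251 UMIs against 1491 to 2751. In RD tumour 1, cholangiocyte-gated nuclei had 24.2 and hepatocyte-gated nuclei 22.9, nearly the same level, and 641 of 750 UMIs were in the latter.

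RD tumour 2 also held pancreatic RNA. In cholangiocyte-gated nuclei its acinar markers were at 219.4 CPM, against 2.0 to 15.4 in the other libraries, and in hepatocyte-gated nuclei at 172.4. All 6 acinar markers were detected in that library, against 1 to 5 in the others, and its 362 acinar-gated nuclei had Prom1 at 11.9. Among the 11 genes called for RD tumour against RD no tumour were the pancreatic genes Rbpjl, Prss2, Sycn, Ins2, Ctrb1, Cela1, Clps and Pnlip, named after their values were seen. In RD tumour 1 neutrophil markers were at 2953.7 CPM, against 31.9 to 909.2 in the other libraries. Neutrophil-gated nuclei held 24 of the 118 Prom1 UMIs of RD no tumour 1. In RD tumour 1 itself, 57 neutrophil-gated nuclei held 2 of the 750 Prom1 UMIs. The part of either in the Prom1 difference was not tested. Within cholangiocyte-gated nuclei, Prom1 did not differ detectably between WD tumour and RD no tumour (log2 fold change -0.10, SE 0.27, adjusted p = 0.959; 0.0193% of genes called in that class).

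**Figure D4:**
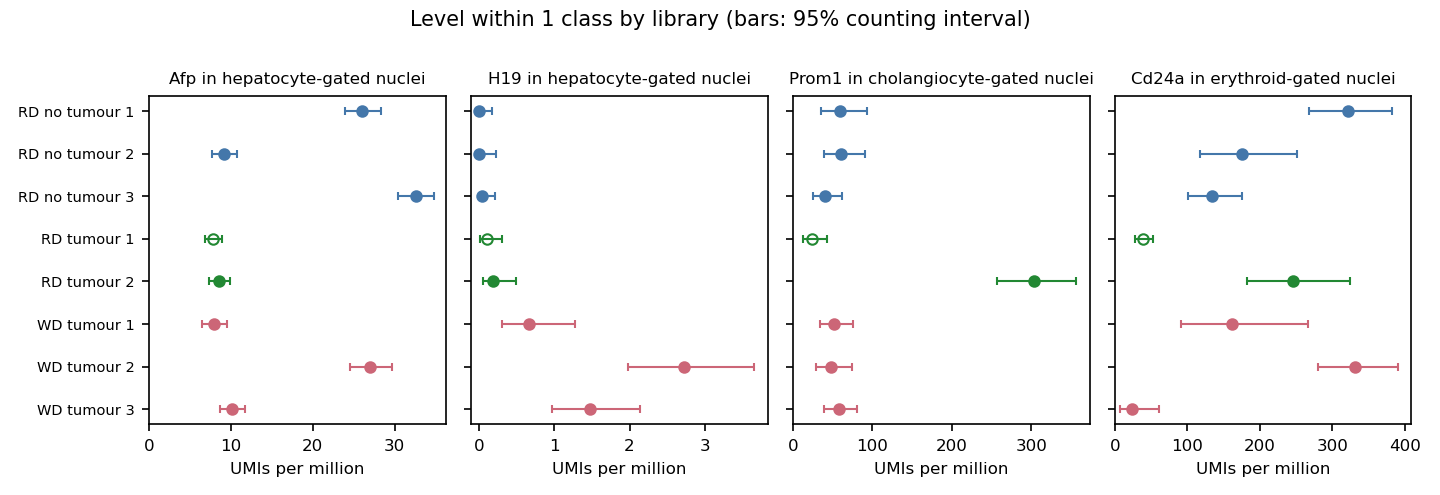
CPM (horizontal axes) of Afp and H19 in hepatocyte-gated, Prom1 in cholangiocyte-gated and Cd24a in erythroid-gated nuclei of the 8 libraries; bars are 95% Poisson counting intervals and the open circle is RD tumour 1. Prom1 in RD tumour 2 (303) lies far from the other libraries (24.2 to 60.7), and Cd24a in WD tumour 3 (23.6), whose erythroid-gated nuclei were weakly gated and so not a like class, is below the other main libraries (134 to 332).

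Cd24a (ENSMUSG00000047139, chr10:43578284-43584265, plus strand) encodes a small glycoprotein of the cell surface found on progenitors, some tumours and maturing blood cells. Levels were 13.5, 4.55 and 3.20 CPM in the RD no tumour livers. WD tumour 1, 2 and 3 had 3.79, 32.2 and 1.99. RD tumour 2 had 5.22 and RD tumour 1 had 9.34. WD tumour 2 was more than 2-fold above every other library, and the other WD tumour livers were within or below the RD no tumour range. The log2 fold change for WD tumour against RD no tumour was 0.79 (SE 1.05), and without WD tumour 2 it was -1.26.

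Cd24a was highest in red cell precursors: erythroid-gated nuclei, 1.69% of nuclei, held 26.7% of its UMIs, at 228 CPM against 5.52 in hepatocyte-gated and 18.1 in cholangiocyte-gated nuclei. Summed erythroid markers, all 7 of them detected in every library, reached 25572 CPM in WD tumour 2, while the other 7 libraries had 1015.1 to 6599.5. The same 2 livers with the most Cd24a, WD tumour 2 and RD no tumour 1, had the most erythroid marker RNA. In erythroid-gated nuclei the levels of Cd24a in these same 2 livers were 332 and 321, while WD tumour 3 had 23.6 in 215 nuclei. Its class was weakly gated: 43.7% of those nuclei lay close to the threshold, their median was 2 erythroid markers against 4 in the other 6 main libraries, and 37 were left at 8-fold. Whether red cell RNA accounts for the difference between libraries was not tested.

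Golm1 (ENSMUSG00000021556, chr13:59634626-59675811, minus strand) encodes a Golgi membrane protein that is released to serum in liver disease. The RD no tumour livers had 9.06, 4.02 and 1.96 CPM, and the WD tumour livers 2.95, 7.07 and 4.03. RD tumour 2 had 6.10 and RD tumour 1 had 8.73. The groups overlapped, with a log2 fold change of -0.12 (SE 0.56) between WD tumour and RD no tumour, which was 0.56 without RD no tumour 1. Among classes found in all 7 libraries its median level was highest in T and NK nuclei (25), then cholangiocyte-gated (15.0) and macrophage-gated (13.8) nuclei, and low in hepatocyte-gated nuclei (1.72). The 83 mesothelial-gated nuclei had 27.5 from 7 UMIs. Golm1 overlaps Naa35 on the opposite strand.

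Igf2bp3 (ENSMUSG00000029814, chr6:49085223-49214957, minus strand) was at 31.2, 27.6 and 29.8 CPM in the RD no tumour livers. The WD tumour livers had 19.1, 29.8 and 22.1, RD tumour 2 had 29.1, and RD tumour 1 had 66.2. WD tumour 1 and 3 were below every RD no tumour liver, but WD tumour 2 was within their range, and the log2 fold change of -0.37 (SE 0.18) did not pass the test. In macrophage-gated nuclei it was -0.81 (SE 0.30, adjusted p = 0.996). Igf2bp3 was spread over the classes: among those found in all 7 libraries the median level was 44.3 in dendritic, 41.2 in stellate-gated, 27.4 in hepatocyte-gated and 10.1 in erythroid-gated nuclei. In RD tumour 1 it was above the range of the other libraries in hepatocyte-gated (66.2) and stellate-gated (68.8) nuclei, and within it in cholangiocyte-gated (37.3) and dendritic (55.9) nuclei. Igf2bp3 overlaps Malsu1 on the opposite strand.

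Lin28b (ENSMUSG00000063804, chr10:45376620-45486395, minus strand) was the other member near the detection limit. Its UMIs numbered 27, 13 and 14 in RD no tumour 1, 2 and 3. The WD tumour livers had 6, 4 and 11, and both RD tumour livers had 11. Levels were 0.645 ± 0.253 CPM in RD no tumour and 0.320 ± 0.135 in WD tumour (SD, n = 3 each), and the groups overlapped by 1 library. The log2 fold change of -1.02 (SE 0.53) did not pass the test. The UMIs were spread 1 to a nucleus, apart from 1 nucleus of WD tumour 3 with 2.

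**Figure D5:**
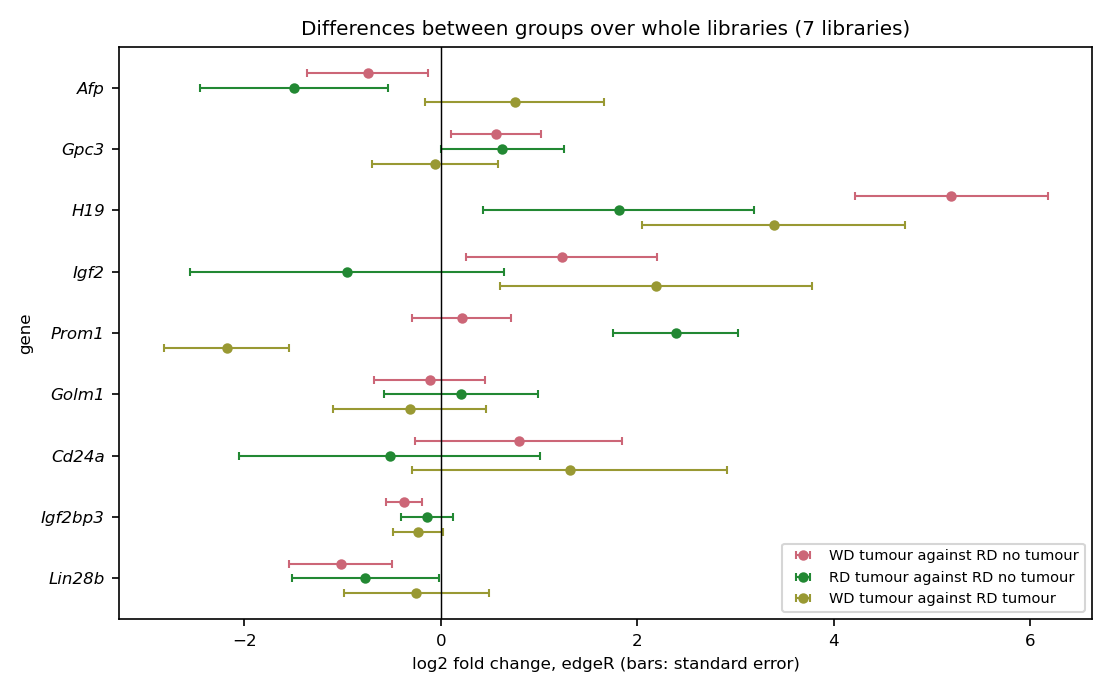
Log2 fold changes of the 9 genes over whole libraries from edgeR (horizontal axis), with standard errors as bars, for the 3 comparisons between groups, which share samples. None passes an adjusted p of 0.05; H19 lies farthest from 0 in the first comparison, of WD tumour with RD no tumour (5.20), and Prom1 in that of RD tumour with RD no tumour (2.39).

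Among themselves the 9 genes did not move as a block. For WD tumour against RD no tumour, 5 had a positive and 4 a negative log2 fold change, with a median of 0.21 against -0.01 over all genes. For RD tumour against RD no tumour, 4 were positive and 5 negative (median -0.14 against -0.07), and for WD tumour against RD tumour, 4 and 5 (median -0.06 against 0.07). All 9 were tested, but H19, Igf2 and Lin28b rest on 108, 36 and 86 UMIs in 7 libraries, so these medians describe the genes and support nothing further. WD tumour 2 was the highest WD tumour library for 7 of the 9 genes (Afp, Gpc3, H19, Igf2, Golm1, Cd24a and Igf2bp3), where 47.6% of all genes tested had that order. It was also the library with the most erythroid RNA, whose part in these values was not tested. For 5 of the 9 the mean share of nuclei with a UMI was higher in the WD tumour livers than in the RD no tumour livers, and for 4 after thinning nuclei to 500 UMIs.

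The known controllers of these genes showed no called change. Zhx2 was at 109.8, 122.9 and 88.7 CPM in the WD tumour livers and at 97.7, 98.5 and 83.7 in the RD no tumour livers, with a log2 fold change of 0.15 (SE 0.17). Zbtb20 had a log2 fold change of -0.01 (SE 0.36). Of the 12 regulators of Afp and H19 examined, 5 had positive and 7 negative values and 0 were called, with a median of -0.02. The largest changes were of Cebpa (0.53, SE 0.42) and Hnf4a (-0.47, SE 0.41), liver transcription factors, and neither passed.

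In the other gene lists no gene was called either. Of 18 fetal liver and oncofetal genes, 14 were tested (Dlk1, Peg10, Igf2bp1 and Bex1 were too low), and WD tumour against RD no tumour gave 9 positive and 5 negative values with a median of 0.23. The share of positive values over all genes tested was 48.9%, with a median of -0.01. Meg3 had 1.34, 12.0 and 3.13 CPM in the WD tumour livers and 21.2, 40.9 and 24.7 in the RD no tumour livers. The groups did not overlap, which held for 3.82% of all genes in that direction, and the log2 fold change was -2.48 (SE 0.76, adjusted p = 0.841), ranging from -3.70 (without WD tumour 2) to -2.03 (without WD tumour 1) when 1 mouse was left out. RD tumour 2 had 51.1 and RD tumour 1 had 3.93. Meg3 was thus low in the WD tumour livers, in which H19 was high, and in RD tumour 1, in which it was not. Lin28a, the other Lin28 gene, had 18 UMIs in 7 libraries, 15 of them in RD no tumour 1, and a log2 fold change of -3.23 (SE 1.79; -5.27 without WD tumour 2). Igf2bp2, an mRNA-binding relative of Igf2bp3, is named here because its unadjusted p was the lowest of the lists. It had 9.08, 14.8 and 13.5 CPM in the WD tumour livers and 4.39, 2.91 and 4.28 in the RD no tumour livers. Such an order of these groups held for 6.92% of all genes. RD tumour 2 had 7.16 and RD tumour 1 had 4.63. The log2 fold change of Igf2bp2 for WD tumour against RD no tumour was 1.63 (SE 0.28, adjusted p = 0.711 by edgeR and 0.000161 by DESeq2).

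The 11 receptors and binding proteins of insulin-like growth factors gave 5 positive and 6 negative values, with Igf2r, the receptor that clears Igf2, at 1.04 (SE 0.58; 0.24 without WD tumour 2, which had 340.8 CPM) and Igfbp2 at -0.49 (SE 0.60). The 22 other liver tumour and Wnt target genes gave 16 positive and 6 negative values with a median of 0.26. Over all genes tested, 48.9% were positive and the median was -0.01. Sox4, a progenitor transcription factor, was at 1.62 (SE 0.42, adjusted p = 0.768). Epcam, an epithelial adhesion molecule of bile duct cells and one of the cholangiocyte markers, was at 1.15 (SE 0.43, adjusted p = 0.898). Cholangiocyte markers summed to 204.5 to 336.6 CPM in the WD tumour livers and 91.4 to 198.3 in the RD no tumour livers. Epcam, Krt19, Sox9 and Spp1 are such markers and are in this list. The part of bile duct cells in the values of this list was not tested.

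The genes most alike in pattern were sought over 82 sums of 14 classes by library, as a correlation of log2(CPM + 10). The sums share libraries and depth, and the values are a description. Gpc3 was most like Il1rapl1, Muc16 and Adgrd1 (r = 0.910, 0.905 and 0.901), of which Muc16 is a mesothelial marker of the gate. Prom1 was most like Anxa13, Hnf4g and Chst8 (0.845, 0.843 and 0.834). Afp followed the noncoding genes Gm48342 and Gm45792, and Grin2b (0.750, 0.745 and 0.735). Golm1 was most like Plekhb2, Emb and Itpk1 (0.652 to 0.604) and Igf2bp3 most like Smim4, B230307C23Rik and Man2c1os (0.757 to 0.692). For H19, with 108 UMIs, the nearest were Sult3a1, Rhbg and Snrpn (0.608 to 0.523). The highest H19 sum, 8.18 CPM in T and NK nuclei of WD tumour 1, came from 3 UMIs and was below the 10 CPM added. The H19 order thus rests on few UMIs. Igf2 and Lin28b had too few UMIs for this measure.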

How the data were processed

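The authors deposited raw UMI counts per gene and barcode, made with Cell Ranger 7.0.0 on the mm10 build, per the submitters' processing notes; the gene annotation, counting of intronic reads and use of strand are not given in the sources used here. Gene positions are from GENCODE M21 (32158 of 32285 gene identifiers matched). Nuclei are barcodes with 300 or more detected genes, and doublets were not removed; calls by Scrublet (scanpy 1.11.5) were removed only in an alternative. A nucleus joined 1 of 11 non-hepatocyte classes when it held at least 2 of its markers and at least 4 times the library's own share of that class's marker UMIs; when a second class was within 2-fold it was called mixed. Otherwise it was hepatocyte-gated with at least 4 hepatocyte markers, or ungated. The gate first planned had no comparison with the library share; it was changed after the data were seen, without use of the 9 genes, because globin RNA in most nuclei left 0 hepatocyte-gated nuclei in 1 library. Counts were summed per library and class and tested with edgeR 4.0.16 (TMM, filterByExpr, quasi-likelihood test, 3-group model, R 4.3.3) on 7 libraries; DESeq2 1.42.0 was an alternative. The test was tried on simulated counts first. A count of 0 allows up to 3 UMIs. Shares have exact binomial and counts exact Poisson intervals at 95%; without separate cultures or litters named, p-values measure the spread between these mice. The 9 genes and the gene lists were chosen with earlier results of these data known. Named beside the 9 were Zhx2, Zbtb20, the genes of each list that passed a test or else the 2 with the largest change between WD tumour and RD no tumour, Igf2bp2 added after its values were seen, and the 3 genes most alike to each member with at least 100 UMIs (among genes with at least 200). No per-sample column was left out. The genes most alike to Cd24a, and some of the genes called for RD tumour, are not reported here.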

Additional observations from a re-analysis of the deposited data

Results flagged for a closer look

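RD tumour 1, the library with exactly 20000 barcodes, entered no main comparison, and 3 of the 9 genes were above every RD no tumour library in it, where 36.6% of all genes tested were. Prom1 was at 21.8 CPM against 1.09 to 4.05. Igf2bp3 was at 66.2 against 27.6 to 31.2. Igf2 was at 0.291 against 0.0343 to 0.221, from 10 UMIs in 10 nuclei. The difference rests on 1 library, whose cell classes were weakly separated.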

How the results depend on the processing

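H19 (0 to 49 UMIs a library), Igf2 (1 to 16) and Lin28b (4 to 27) are limited by depth, and RD tumour by its number of mice. Counts of called genes for WD tumour against RD no tumour, RD tumour against RD no tumour and WD tumour against RD tumour (0, 11 and 0) became 132, 78 and 105 with DESeq2. Without a low-count filter the last 2 were 20 and 21. The second became 0 with all 8 libraries, with the replicate block and at 500 genes, and 2 at 5% mitochondrial UMIs; the third became 12 without doublets and 3 at 5% mitochondrial UMIs. RD tumour 1 in place of RD tumour 2 gave 4569 and 4438. Leaving out 1 mouse gave 0, 0 to 5 and 0 to 3. For WD tumour against RD no tumour by class, hepatocyte-gated counts (0) became 109 with DESeq2 and 2 with the gate first planned. The cholangiocyte-gated count (2) became 70 with DESeq2, 445 without a filter, 0 with all 8 libraries and with the block, 1 with 3 markers and with the 8-fold gate, and 11 with the first gate, and 0 to 161 leaving out a mouse (161 without RD no tumour 1). Endothelial-gated counts (0) became 10 and 2, stellate-gated 29 and 1, and macrophage-gated 5 and 9, with DESeq2 and the first gate, and 0 to 2, 0 to 2 and 0 leaving out a mouse.

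Of the members, H19 in hepatocyte-gated nuclei passed with DESeq2 (6.44, adjusted p = 0.00389; 0.365% of genes called higher), on 1 UMI in the RD no tumour livers, so the gene was tested only through the group in which it is high. Signs changed for Prom1 (-0.27 at 5% mitochondrial UMIs, and -0.08 to 0.96 leaving out a mouse), Golm1 (0.07 with the replicate block, -0.50 to 0.56) and Cd24a (-0.07 with the block, -1.26 to 1.58) in WD tumour against RD no tumour. In RD tumour against RD no tumour they changed for Cd24a (0.03 with all 8 libraries, 0.41 with RD tumour 1 in place of RD tumour 2, -0.85 to 0.27 leaving out a mouse), Igf2bp3 (0.65 and 1.14, adjusted p = 0.0245 for the latter), Igf2 (1.05 with RD tumour 1) and Golm1 (-0.16 to 0.88). In WD tumour against RD tumour they changed for Gpc3 (0.15 with all 8 libraries, 0.36 with the block, 0.42 with RD tumour 1, -0.62 to 0.22 leaving out a mouse), Cd24a (-0.74 to 1.79) and Lin28b (-0.59 to 0.06). With RD tumour 1, Prom1 (-3.14) and Igf2bp3 (-1.51) passed there. Zbtb20 was 0.02 at 500 genes, 0.12 at 5% mitochondrial UMIs, and -0.23 to 0.18 leaving out a mouse; Hnf4a was -0.73 to 0.08, and Prom1 in cholangiocyte-gated nuclei -0.27 to 0.01. The cause of these changes was not tested. Replicate numbers did not pair the mice: same-numbered WD tumour and RD no tumour libraries had deviations correlated at -0.55, -0.45 and 0.38, and with the block no member passed. The first gate, the 8-fold gate and the use of RD tumour 1 in place of RD tumour 2 were chosen after seeing the data.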
